A study of Mus musculus with 16 samples.

Results

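The transcripts described here are Nr5a2, Cyp7a1, Cyp7b1, Abcg5 and Abcg8, 5 genes of bile acid synthesis and sterol export in mouse liver, followed through the sites at which acetylated RNA was called. They are 5 of the 8602 genes with at least 1 peak, and their peaks are those whose gene name in the deposited lists equals 1 of these symbols. The genes were picked because peaks in them had been seen in more db/db than lean mice, so the difference between the groups in where they were called is given as a description, without a test. All 5 symbols were found in the RefSeq gene table, and each had at least 2 peaks.

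The study measured N4-acetylcytidine (ac4C), a modified cytidine made in RNA by the enzyme NAT10. It used immunoprecipitation of fragmented liver RNA, depleted of ribosomal RNA, and sequencing (acRIP-seq). Livers came from male db/db mice, labelled with db/db as the strain, and from male lean controls labelled C57BL/6. The db mutation removes the signalling form of the leptin receptor from every tissue, so such mice overeat and become obese and diabetic. Groups of these genotypes can therefore differ in body fat, insulin and food intake as well, none of which is among the values used here. Both groups were kept under the same specific-pathogen-free housing with free access to food, and neither age nor drug treatment is given in the labels. The 16 samples comprise 8 immunoprecipitates and 8 inputs, 4 of each per group. The values used were 8 peak lists, named db1, db2, db4 and db5 for db/db and C5 to C8 for lean mice. A list is called a mouse below, although the labels do not say that each sample is a separate animal.

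The lists held 8212 to 9754 peaks in db/db and 7583 to 8503 in lean mice, and no read totals were used, so depth is unknown. Each peak came with the authors' own score, 10 times the negative log10 of its p-value, and fold enrichment, the linear ratio of immunoprecipitate to background. Over all 68356 peaks the score began at 13.02 and the fold at 2. A false discovery rate of 100% stood beside each of the 25 peaks of the 5 genes, as it did beside 99.2% of all peaks. A list without a peak says that the caller reported none there. Fewer cells carrying a transcript, less RNA per cell and less acetylation cannot be told apart in these lists.

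Bile acids are made from cholesterol in hepatocytes by a classic route that starts with Cyp7a1, the rate-limiting cholesterol 7-alpha-hydroxylase, and an alternative route in which Cyp7b1 hydroxylates oxysterols. Nr5a2 (LRH-1) is a nuclear receptor that helps to drive transcription of bile acid synthesis enzymes, and is itself held back by the small heterodimer partner, the product of Nr0b2. Abcg5 and Abcg8 are half-transporters that work only as a pair and export cholesterol and plant sterols across the canalicular membrane into bile. The ac4C mark has been linked to the stability and translation of messenger RNA.

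Abcg5 and Abcg8 lie head to head on chromosome 17 and are transcribed away from each other. The stretch between their facing starts is shown because an annotated start of each gene lies at its edge. The stretches before the 2 annotated starts of Nr5a2 are shown because all called regions of Nr5a2 lay downstream of both. The sequences are RefSeq start windows of GRCm38.p6, which held 3 of the 5 genes (not Cyp7a1 or Cyp7b1), written 5′ to 3′ on the strand of Abcg8 or Nr5a2. Capitals mark AGATAA, the GATA factor motif, searched on both strands, where TTATCT is its reverse complement.
Abcg5-Abcg8 stretch, chr17:84683012-84683120, plus strand: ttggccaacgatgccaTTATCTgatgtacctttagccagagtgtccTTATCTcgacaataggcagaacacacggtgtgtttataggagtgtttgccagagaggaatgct
Nr5a2 upstream start, chr1:136960449-136960698, minus strand: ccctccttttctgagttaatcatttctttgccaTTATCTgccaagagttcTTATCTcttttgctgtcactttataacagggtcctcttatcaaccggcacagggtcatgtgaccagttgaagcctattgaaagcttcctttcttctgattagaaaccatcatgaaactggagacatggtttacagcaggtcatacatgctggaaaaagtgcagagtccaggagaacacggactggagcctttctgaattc
Nr5a2 internal start, chr1:136953631-136953880, minus strand: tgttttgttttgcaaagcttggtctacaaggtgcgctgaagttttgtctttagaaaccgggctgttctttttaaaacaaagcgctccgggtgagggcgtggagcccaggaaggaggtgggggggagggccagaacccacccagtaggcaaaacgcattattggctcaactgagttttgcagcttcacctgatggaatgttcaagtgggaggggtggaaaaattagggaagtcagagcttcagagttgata

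The 109 bases between Abcg5 and Abcg8 held 2 matches to AGATAA, at positions 17 and 47 from the 5′ end as printed. Among the 32851 start windows, 3.98% held at least 1 match in the 109 bases before the start and 0.186% held 2 or more. The 250 bases before the upstream Nr5a2 start also held 2 matches, at positions 34 and 51, against 9.99% of windows with at least 1 in 250 bases and 0.938% with 2 or more. The stretch before the internal Nr5a2 start held none. The half-site of Nr5a2 itself, searched as CAAGGNCA on both strands, was in none of the 3 stretches. Of all windows, 5.53% held it in the 250 bases before the start and 2.24% in the 109 bases before it. The motifs were chosen after the sequences had been seen, and a match is a run of letters, not a measured binding site. No called region of Nr5a2, Abcg5 or Abcg8 overlapped a start window, and Cyp7a1 and Cyp7b1 had no window to compare.

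Nr5a2 carried the most recurrent site. Its 9 peaks fell into 3 regions, all in db/db mice, and no lean list had a peak in the gene. The first region, chr1:136944959-136945077 (mm10, 119 bp), was called with a fold of 6.24 in db1, 7.17 in db2, 6.76 in db4 and 4.76 in db5. The scores there were 75.4, 73.4, 136.2 and 45.4 in the same order. Within their own lists the db1, db2 and db4 peaks ranked at the 84.2 to 88.2 percentile of fold, and the db5 peak at 66.1.

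The third region of Nr5a2, chr1:136952102-136952164 (63 bp), was called in db1, db2 and db4 with folds of 6.01, 3.72 and 4.35. Its scores of 24.2, 16.9 and 16.7 lay below the middle score of their lists, and db5 had no peak there. The second region, chr1:136948722-136949562 (841 bp), was called in db1 with a fold of 3.85 and in db4 with 3.49. The authors assigned these wide peaks to the transcript uc007cva.2 and the other Nr5a2 peaks to NM_030676. Only db1 and db4 therefore held all 3 regions.

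Nr5a2 runs from 136842562 to 136960448 on chromosome 1 and is read from the higher coordinate, with RefSeq starts at 136960448 and 136953630. The regions lay 15.4, 10.9 and 8.28 kb downstream of the upstream start and 8.55, 4.07 and 1.47 kb downstream of the internal one. All 3 fell within a span of 7.21 kb, which is 6.11% of the 117.9 kb gene. Exon and untranslated region boundaries were not used here, so the place within the mature transcript is not given.

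Cyp7a1, which opens the classic route, and Cyp7b1, an oxysterol hydroxylase of the alternative route, each had peaks in 2 db/db mice and in no lean mouse. Cyp7a1 (chromosome 4, 6265612 to 6275632) had 2 regions. At chr4:6269056-6269231 (176 bp) the fold was 5.62 in db4 and 2.59 in db5, with scores of 99.1 and 16.5. These peaks ranked at the 79.0 percentile of fold in db4 and the 6.20 percentile in db5. The other region, chr4:6271116-6271246 (131 bp), was called in db4 alone, at a fold of 5.80 and a score of 74.1. Of the 3 Cyp7a1 peaks 2 were thus in db4, and the mice db1 and db2 had none.

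Cyp7b1 (chromosome 3, 18071944 to 18243890) had a different site in each mouse that showed it. In db5 the peak was at chr3:18079305-18079480 (176 bp), with a fold of 2.65 and a score of 16.4. In db2 it was at chr3:18243088-18243304 (217 bp), with a fold of 3.46 and a score of 14.2. The sites were 163.6 kb apart, near opposite ends of the 171.9 kb gene, the second of them 586 bp from the end with the higher coordinate. Within their lists these scores stood at the 15.2 percentile (db5) and the 7.09 percentile (db2), and no Cyp7b1 site was called in more than 1 mouse.

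**Figure D1:**
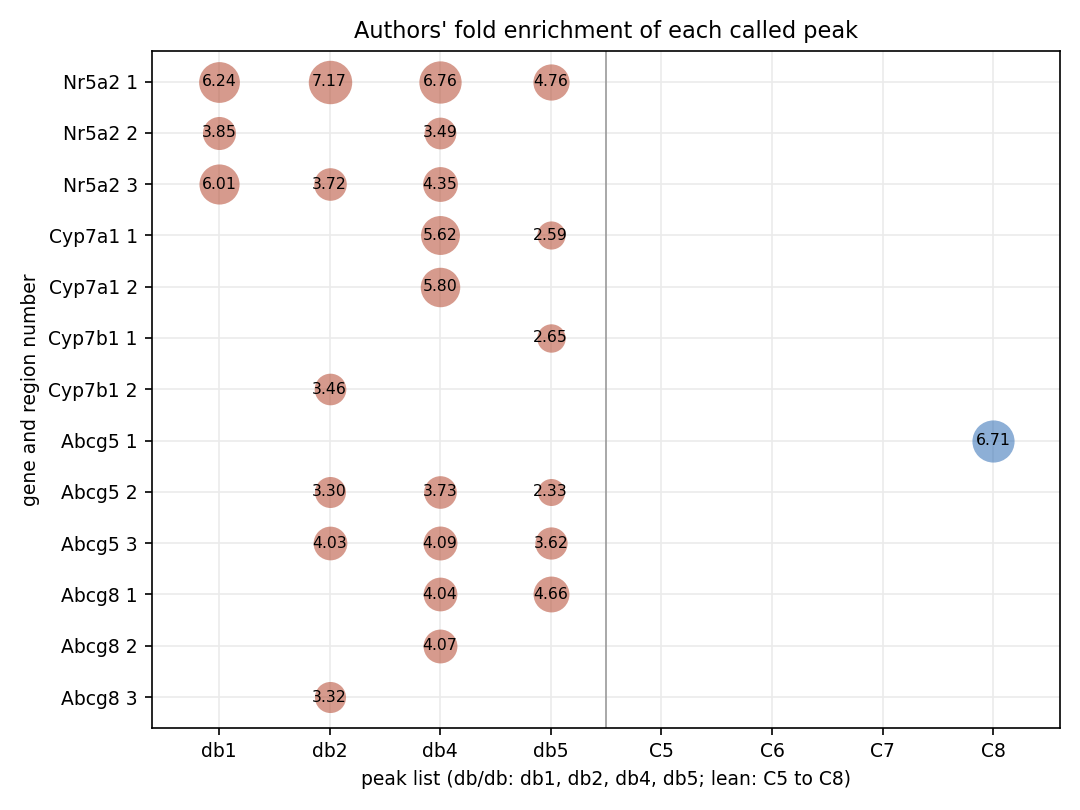
Authors' fold enrichment (linear ratio, printed in each circle, with the area growing with the fold) of each of the 25 peaks, by region (rows) and peak list (columns; red db/db, blue lean). Nr5a2 region 1 is filled in all 4 db/db lists at 4.76 to 7.17, and the lean lists hold 1 peak, in Abcg5 region 1 of C8.

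Abcg5 and Abcg8, the paired half-transporters, were called in the same db/db mice, db2, db4 and db5, and neither in db1. Abcg5 (chromosome 17, 84658174 to 84683011, read from the higher coordinate) had 2 db/db regions that always came together. At chr17:84671122-84671251 (130 bp) the fold was 3.30 in db2, 3.73 in db4 and 2.33 in db5. At chr17:84672154-84672293 (140 bp) it was 4.03, 4.09 and 3.62 in the same mice. The regions were 902 bp apart and lay 11.8 and 10.7 kb downstream of the start. Their scores ran from 15.9 to 37.2.

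The only lean peak of the 5 genes was in Abcg5 of C8, at chr17:84664692-84664877 (186 bp), with a fold of 6.71 and a score of 246.2. It stood at the 94.2 percentile of score in its list, the highest such rank among the 25 peaks. It lay 18.1 kb from the start and 6.24 kb from the nearest db/db region, and no db/db list had a peak there. Taken by gene, Abcg5 was called in 3 db/db mice and 1 lean mouse, but site by site the groups shared none of its 3 regions. Over all 25437 merged regions 37.5% were called in both groups, and the lean side of Abcg5 rests on the 1 peak of C8.

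Abcg8 (chromosome 17, 84676302 to 84700333, plus strand) had 3 regions and no lean peak. At chr17:84688532-84688688 (157 bp) the fold was 4.04 in db4 and 4.66 in db5, with scores of 16.3 and 42.0. The region chr17:84691800-84692038 (239 bp) was called in db4 alone, at a fold of 4.07, and chr17:84697295-84697562 (268 bp) in db2 alone, at 3.32. Measured from the start that faces Abcg5, at 84683121, the regions lay 5.41, 8.68 and 14.2 kb downstream. No Abcg8 site was called in all of db2, db4 and db5, whereas both db/db sites of Abcg5 were. The annotated bounds of Abcg5 and Abcg8 overlap over 6710 bp because a second RefSeq start of Abcg8 lies inside Abcg5. None of the peaks fell in that overlap, so the gene assignment did not depend on strand, which the lists do not give.

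**Figure D2:**
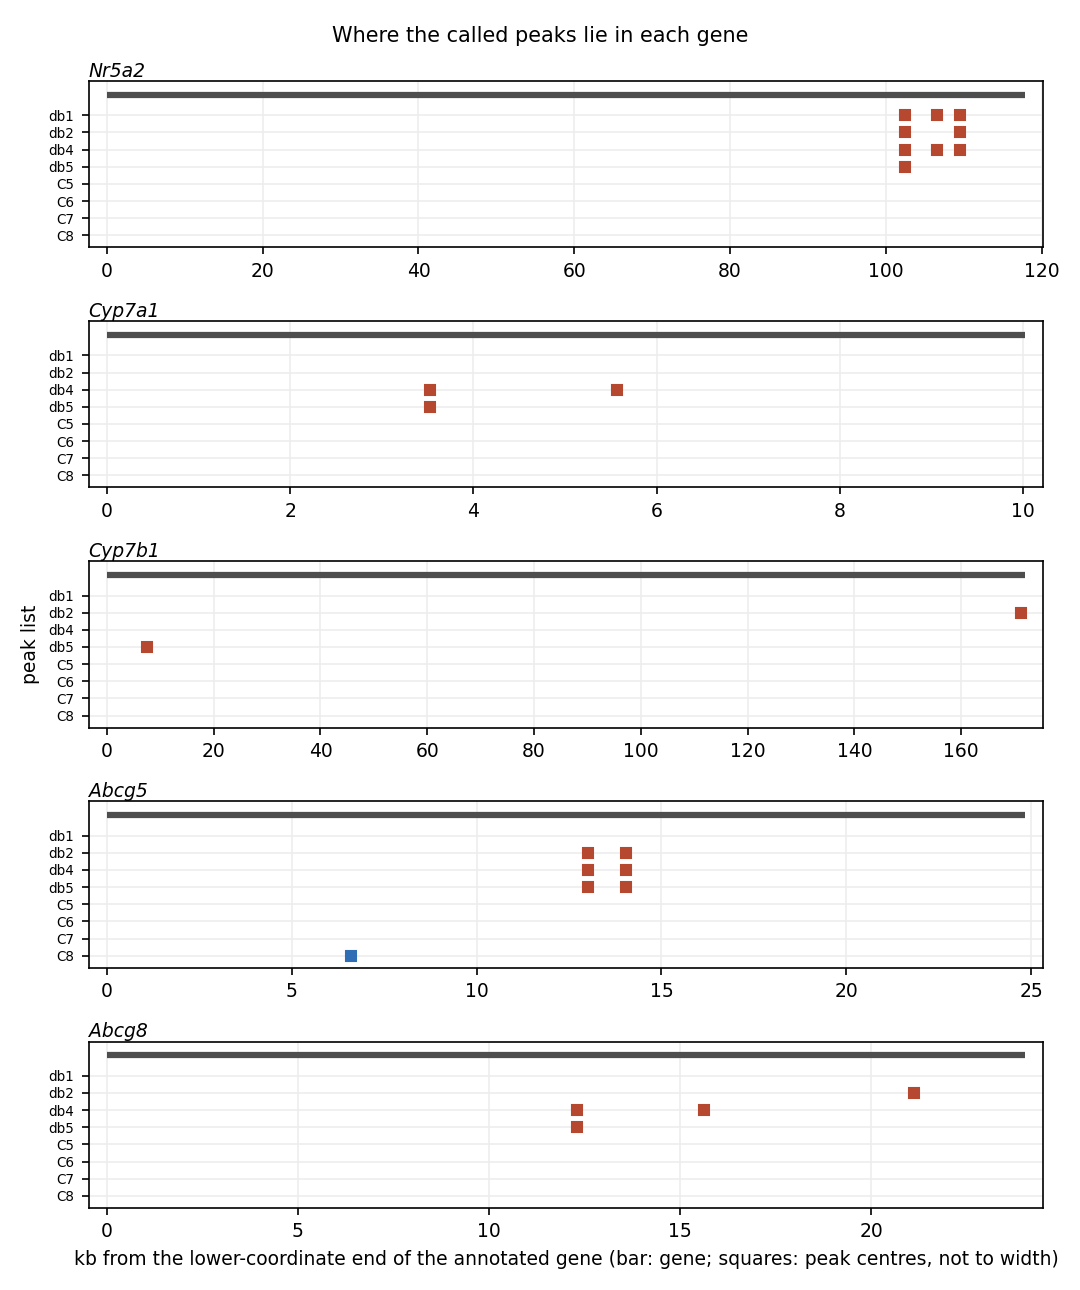
Peak centres (squares; red db/db, blue lean) by peak list along each gene, in kb from the lower-coordinate end of the annotated gene (grey bar). Nr5a2 and Abcg5 read from right to left and Abcg8 from left to right. The Nr5a2 peaks cluster within 7.21 kb near the starts, while the Cyp7b1 peaks of db5 and db2 are 163.6 kb apart.

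By mouse, db1 had a peak in 1 of the 5 genes, db2 and db4 in 4 each and db5 in 5. The lean mice C5, C6 and C7 had none and C8 had 1. The means were 3.5 ± 1.73 genes in db/db and 0.25 ± 0.5 in lean mice (SD, n = 4 each), and db1 and C8 were level at 1 gene, so the groups met at that value. In number of peaks db1 had 3, db2 6, db4 9 and db5 6, and C8 had 1. Without db1 the db/db mean was 4.33 ± 0.577 (n = 3). The longest list, db4 with 9754 peaks, held the most peaks of these genes, while C8, with the only lean peak, was the shortest at 7583.

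The genes were chosen on these calls, and the frequencies over all genes are given for scale. A peak in at least 2 more db/db than lean mice was seen in all 5 genes and in 14.4% of the 8602 genes. Calls in 3 or 4 db/db mice with no more than 1 lean mouse were found for Nr5a2, Abcg5 and Abcg8 and for 7.16% of all genes, and the mirror pattern for 5.03%. With lists cut to equal length the shares were 5.95% and 6.31% of the genes that still had a peak, so the higher share moved from db/db to lean. The full contrast of Nr5a2, 4 against 0, was shared by 0.942% of genes. By site, 12 of the 13 regions were called in db/db mice only, against 36.3% of all merged regions (26.2% were in lean mice only and 37.5% in both groups). Of the 13 regions, 4 were in 3 or 4 db/db mice without a lean mouse, against 3.36%. Nothing is read from these counts about the 5 genes, since the same calls selected them.

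Each exact mix of mice was held by about 1% of the 8602 genes or fewer. The pattern of Abcg8, db2, db4 and db5 without db1 or any lean mouse, was found in 66 genes (0.767%). Genes in exactly 3 db/db mice and no lean mouse numbered 217, and the missing mouse was db1 in 66, db2 in 52, db4 in 34 and db5 in 65. The pattern of Cyp7a1 (db4 and db5 only) was found in 87 genes (1.01%), that of Cyp7b1 (db2 and db5 only) in 40 (0.465%) and that of Abcg5 (db2, db4, db5 and C8) in 13 (0.151%), each count including the gene itself.

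**Figure D3:**
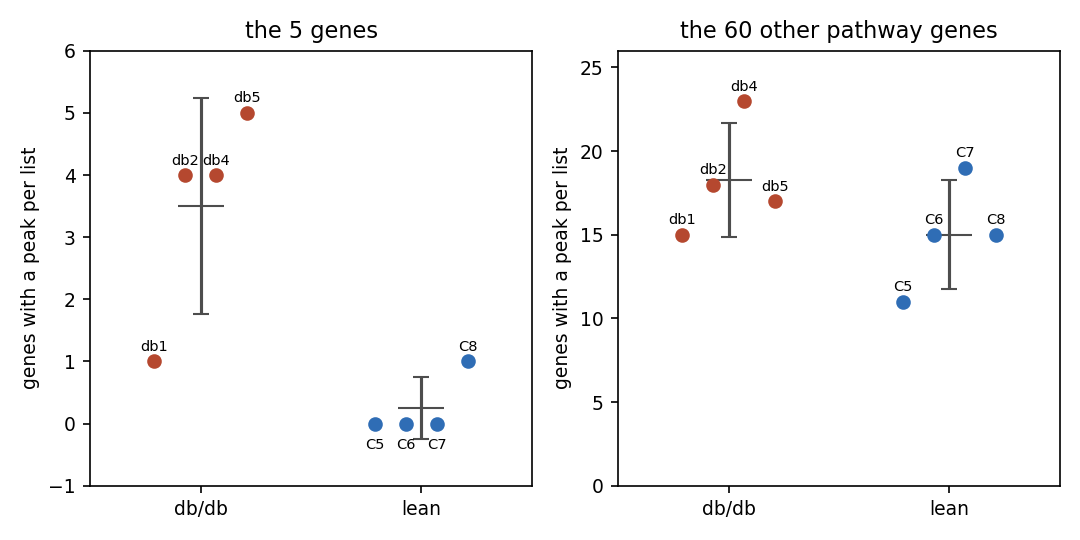
Genes with a peak per list (points, named by list) for the 5 genes (left) and for 60 other genes of the pathway (right), in db/db (red) and lean (blue) mice, with the mean and SD of 4 lists as bars. On the left db1 and C8 both stand at 1, and on the right the groups overlap, at 15 to 23 and 11 to 19 genes.

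The peaks of the 5 genes were of middling strength. Their median fold was 4.04 against 4.07 over all peaks, and 13 of 25 lay above the middle of their own list in fold. Their median score was 24.2 against 30.7, with 12 of 25 above the middle of their list. Median width per peak was 140 bp against 183 bp, with a site called in several lists counted each time. The widths of the 25 peaks ran from 63 to 841 bp. A score of at least 50 was reached by 6 of the 25 peaks, against 32.0% of all peaks. Of these 6, Nr5a2 region 1 gave 3 (db1, db2 and db4), Cyp7a1 gave 2 (both in db4) and the lean Abcg5 site gave 1. No Abcg8 or Cyp7b1 peak and no db/db Abcg5 peak reached that score.

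**Figure D4:**
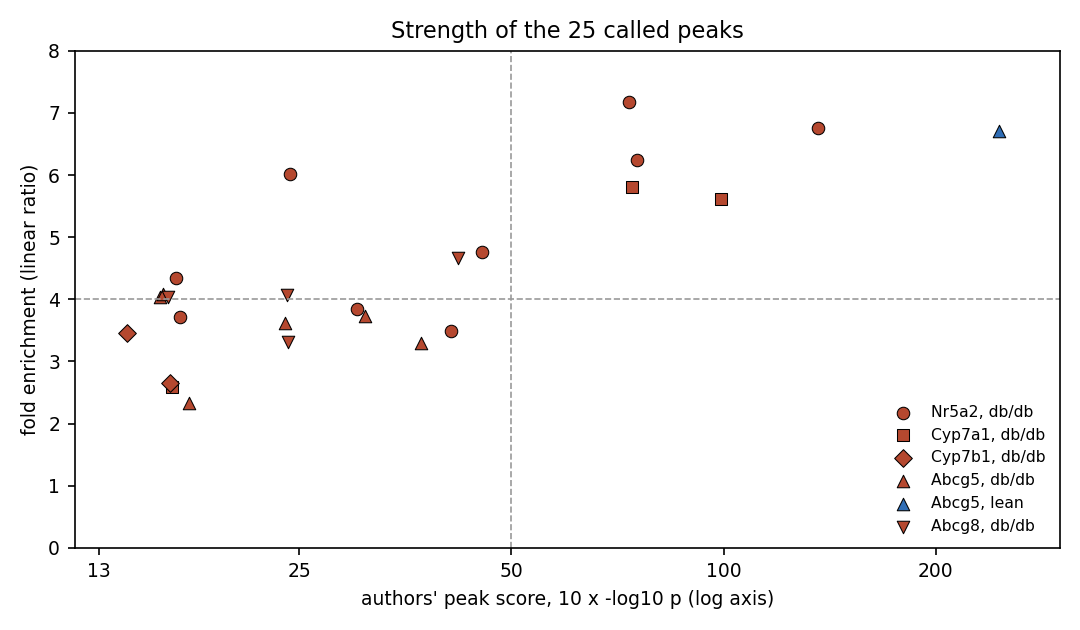
Fold enrichment (linear ratio) against score (10 times the negative log10 of p, log axis) for each of the 25 peaks, with the symbol giving the gene and the colour the group (red db/db, blue lean). Dashed lines mark a score of 50 and a fold of 4. The 6 peaks beyond a score of 50 are Nr5a2 in 3 db/db lists, Cyp7a1 in db4 and Abcg5 in C8.

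Most sites that recurred did so with the same edges, as did most recurrent sites over all genes. Of the 7 regions called in at least 2 mice, 6 had identical first and last bases in every list, and the remaining one, Nr5a2 region 2, shared its lower edge but ended at 136949562 in db1 and 136949521 in db4. Over all genes, 70.8% of the 13981 regions called in at least 2 lists had identical edges.

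Likeness to other genes was measured over the 8 lists as the mean absolute difference in the within-list percentile of a gene's best fold, with 0 where a list had no peak, among 8153 genes. The nearest to Nr5a2 were Vps37b, an endosomal sorting subunit, at 2.80 percentile points and Fermt2, an integrin activator, at 3.34. Vps37b shared the 4 against 0 pattern, whereas Fermt2 also had peaks in 3 lean mice. The nearest to Abcg8 were Pls1, an actin-bundling protein, at 2.78 and Usp14, a deubiquitinase of the proteasome, at 3.17. For Abcg5 they were Cep295, a centriole protein, at 9.85 and Hspa1b, a heat shock protein with a near-identical copy that makes its calls uncertain, at 10.1. For Cyp7a1 they were Adcy9, an adenylate cyclase, at 0.798 and Chi3l1 at 0.898, both called in db4 only. For Cyp7b1 they were Ankrd9 and Cyp2b23, each at 0.987 and called in db2 only. The peaks of Cyp7a1 and Cyp7b1 in db5 ranked so low, at 6.20 and 7.90, that genes without a peak there came out nearest.

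Among 60 other genes of bile acid and sterol handling, 34 had a peak. Of these, 18 were called in more db/db mice, 7 in more lean mice and 9 in equal numbers, with a median difference of 1 mouse towards db/db. Over all 8602 genes, 38.2% were called in more db/db and 30.1% in more lean mice, and the median difference was 0. By Fisher's exact test, two-sided, the smallest unadjusted p that 4 against 4 lists allow is 0.0286, and 139 of all 8602 genes reached it, each at 4 against 0 in one direction or the other. With so few genes at that p, Benjamini-Hochberg adjustment put every gene at 1, so the test could call none of the 34 and decides nothing about them. These genes numbered 18.2 ± 3.40 per db/db and 15 ± 3.27 per lean mouse (n = 4 each), with overlapping ranges of 15 to 23 and 11 to 19.

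The remaining enzymes of bile acid synthesis leaned in neither direction, with 2 of 7 called genes in more db/db mice, 2 in more lean mice and 3 equal. Hsd17b4, which acts in peroxisomal side-chain shortening, was called in all 8 mice. Acot8, a peroxisomal thioesterase, was called in C6 and C7 only, and Abcd3, a peroxisomal membrane transporter, in every mouse except C5. No peak was called in 9 genes of the list, among them Cyp8b1, the sterol 12-alpha-hydroxylase, and Cyp27a1, which opens the alternative route ahead of Cyp7b1.

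Among canalicular and basolateral transporters, 5 of 7 called genes were in more db/db mice and 1 in more lean mice. Abcc3, a basolateral bile acid exporter, was called in db4 and db5 and in no lean mouse, at 3 regions with folds of 3.2 to 3.84, each in 1 mouse. Abcb4, the canalicular phospholipid exporter, had a peak in 7 mice, all but C5, and Atp8b1, a phospholipid flippase, in all 8. Abcb11, the bile salt export pump, was called in db5 only.

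Regulators were divided, with 5 of 11 called genes in more db/db mice and 2 in more lean mice. Fgfr4, the hepatic receptor for the intestinal hormone that represses Cyp7a1 (FGF15 in mice), had peaks in all 4 db/db mice and in C7 and C8, at separate sites. Its region chr13:55166096-55166286 was in all 4 db/db mice and no lean mouse, at folds of 2.62 to 4.84, and chr13:55159923-55160113 was in C7 and C8 only, at 3.57 and 4.28. Hnf4a, a nuclear receptor of hepatocyte identity, had peaks in db1, db2, db5 and C8, again with no region shared by the groups. Rxra, the common heterodimer partner of nuclear receptors, and Ppargc1a, a coactivator, each had peaks in all 4 lean mice but only 2 db/db mice. Rxra had 1 region, called in both groups. The 7 Ppargc1a regions were scattered, with 4 in db/db mice only, 2 in lean mice only and 1 in both groups (db4, db5, C5 and C8). Nr0b2, whose product restrains Nr5a2, was called in db4 and C7, and no peak was called in Nr1h4, the bile acid receptor FXR.

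In sterol handling, 6 of 9 called genes were in more db/db mice and 2 in more lean mice. Scarb1, the high-density lipoprotein receptor, and Mylip, which targets the low-density lipoprotein receptor for degradation, had peaks in all 4 db/db mice and in C5 and C7. Scarb1 had 1 region, called in both groups. The most shared Mylip region was in db2, db4, db5, C5 and C7, and db1 was called at another site. Osbpl2, an oxysterol-binding protein relative, had peaks in db2, db4, db5 and C8. Its 6 regions comprised 3 in db/db mice only, 2 in lean mice only and 1 in both groups. Npc1, the lysosomal cholesterol exporter, had a peak in all 4 lean mice and in db2 and db4, and Stard4, a cytosolic sterol carrier, in every mouse except db1.

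**Figure D5:**
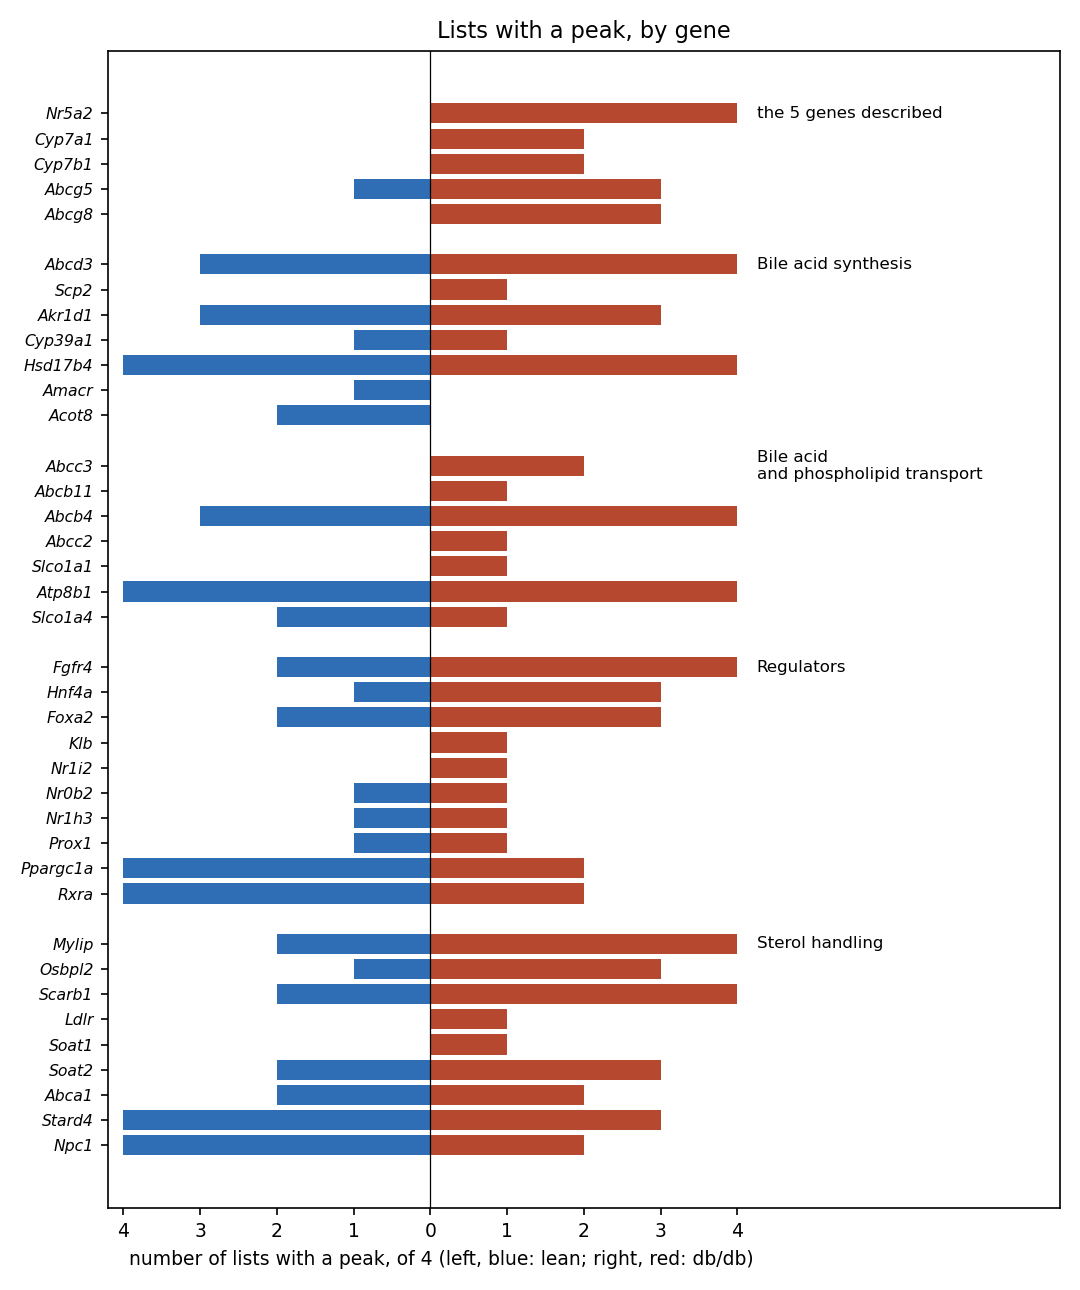
Number of lists with a peak (of 4) for the 5 genes and the other pathway genes with a peak that are reported here, lean to the left (blue) and db/db to the right (red), grouped by role. Nr5a2 reaches 4 on the right with nothing on the left, while Rxra, Ppargc1a and Npc1 reach 4 on the left and 2 on the right. Counts are by gene, so lists with peaks at different sites of a gene are counted together.

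Peaks gave little check of the tissue label. Of 10 hepatocyte markers, 3 had a peak (Cps1, Hnf4a and Ass1), and Alb, Ttr and Apoa1 had none in any list. They were in 1, 2, 0 and 3 genes of db1, db2, db4 and db5 and 0 to 1 per lean mouse. Absence of a peak does not show absence of the transcript. Of 6 cholangiocyte markers, 4 had a peak, in 3, 1, 4 and 1 genes of db1, db2, db4 and db5 and 0 to 1 per lean mouse, with Krt7 and Cftr at none. Sox9 had a peak in 4 db/db and 3 lean mice, whereas Spp1 and Epcam had one in 2 db/db mice each and Krt19 in 1, with none of these 3 called in a lean mouse. Whether this had a part in the db/db calls of the 5 genes was not tested. Small intestine markers, included because Abcg5, Abcg8 and Nr5a2 are also active in the gut, had a peak in 1 of 6 genes (Fabp2, in 1 db/db and 3 lean lists). Exocrine pancreas markers had one in 1 of 6 (Cela1, in 1 lean list).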

How the data were processed

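Acetylated RNA from the livers of db/db and lean mice was analysed as the 8 deposited peak lists, 4 per group. The tools named for the reads, per the submitters' processing notes, are cutadapt 1.9.3 and HISAT2 2.0.4 (build mm10). The deposited peak IDs name MACS as the caller; its version, its control and any pooling are not given in the sources used here. Per the file headers, each peak has a score of 10 times the negative log10 of the p-value, a fold enrichment (ratio) and a false discovery rate in percent. The input libraries were not analysed here.

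The names db1, db2, db4, db5 and C5 to C8 were mapped to groups, not to numbered samples, with C taken as the lean control. The sample titles hold neither db5 nor any name with C, and not every db title has a list of its name. The labels do not say that each sample is a separate animal, although lists are called mice here, so the spread may be technical in part. Peaks of a gene sharing at least 1 bp were merged into regions. For the 25437 regions over all genes, peaks were merged by chromosome, whatever the gene name. Presence or absence was compared between lists; scores and folds served to describe, rank within a list or filter. All genes were tested by Fisher's exact test (scipy 1.17.1) with Benjamini-Hochberg adjustment (statsmodels 0.14.6), checked on simulated lists. Alternatives were a score of at least 50, a fold of at least 4, equal list lengths (7583 peaks), a false discovery rate under 100%, other merging rules, gene bounds and leaving out each list. Named genes were the 5 members, their 2 nearest genes each, and pathway genes that differed by at least 2 lists or had a peak in 7 or 8. Cyp8b1, Cyp27a1, Abcb11, Nr0b2 and Nr1h4 are named outside this rule, after their values were seen. A pathway gene that the rule selects is not reported here. Members and lists were chosen with earlier results of these data known. Coordinates are 1-based, and gene bounds are from RefSeq (GRCm38.p6). The sequence of the peaks was not used here.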

Additional observations from a re-analysis of the deposited data

Results flagged for a closer look

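Of 15 sets of 4 values looked at, 4 held a value far from the other 3, and chance alone marks about 1 in 20 such sets. Counts this small reach the limit whenever 3 lists tie and the fourth differs. In lean mice C8 had 1 of the 5 genes with a peak and C5, C6 and C7 had 0, and the same holds for the number of peaks (1 against 0), both from the Abcg5 site. Among the other bile acid synthesis genes db4 had 4 with a peak and the other db/db lists 3 each. Among the bile acid and phospholipid transporters db1 had 2 with a peak and the other db/db lists 4 each.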

How the results depend on the processing

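At a score of at least 50 the difference of 3.25 genes per mouse fell to 0.75, the regions to 4 with 3 of them in db/db only, and the Abcg5 difference turned from 50 to -25 percentage points of mice, because only its C8 peak reached that score. Keeping peaks with a fold of 4 or more lowered the 3.25 genes per mouse to 2 and left 8 regions, 7 of them in db/db only. Nr5a2 was then called in 4 db/db mice, Abcg5 and Abcg8 in 2 each, Cyp7a1 in 1 and Cyp7b1 in none. No peak of the 5 genes had a false discovery rate under 100%, so that filter left 0 regions and a difference of 0. It removed 99.2% of all peaks. Among only the genes that still had a peak, 4.11% were called in 3 or 4 db/db mice with no more than 1 lean mouse, and 11.0% the reverse. So few genes were left that these shares rest on small counts and are not comparable with those over all genes. Leaving out each list gave differences of 2.75 to 4.08 genes, 11 to 13 regions (10 to 12 in db/db only), 1.67 to 4.58 other pathway genes, and, with the requirement of all but 1 list of a group, shares of 9.47% to 12.3% and 7.16% to 8.86%. With equal list lengths the shares turned from 7.16% db/db and 5.03% lean to 5.95% and 6.31% of the genes that still had a peak. Cyp7b1 was then called in 1 db/db mouse, and the difference was 3 genes per mouse with 12 regions, 11 of them in db/db only. Both other merging rules, run for the regions alone, gave 13 with 12 in db/db only, and assignment by gene bounds, run for the 5 genes alone, left the difference between groups for each as it was. Adjusted p-values per gene say nothing of stability in this design. No paired analysis was possible because the list names of the groups share fewer than 2 numbers. Depth is unknown and limits every absence.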

Other observations

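The pathway terms deposited with the peaks, consulted after the data had been seen, allow a wider view without a test. Of 35 genes of the term bile secretion other than Abcg5, Abcg8 and Cyp7a1, 18 were called in more db/db mice, 5 in more lean mice and 12 in equal numbers, where 38.2% of all genes were called in more db/db and 30.1% in more lean mice. Abcb1a, a drug efflux pump of the canalicular membrane, and Slc4a2, an anion exchanger, each had peaks in 3 db/db mice but not in lean mice. Adcy6, an adenylate cyclase, had the opposite pattern of 0 and 3. Of 29 genes of the term ABC transporters other than Abcg5 and Abcg8, 15 were called in more db/db mice, 4 in more lean mice and 10 in equal numbers, to be read against the same shares over all genes. Abca8a had peaks in 3 db/db mice but not in lean mice, and Tap1, a peptide transporter of antigen presentation, in 4 and 1. The 4 genes in more lean mice were Tap2, at 0 db/db and 2 lean mice, and Abcb6, Abcb8 and Abcg3, each at 0 and 1. In the term primary bile acid biosynthesis, the 6 genes other than Cyp7a1 and Cyp7b1 split into 1 in more db/db mice, 2 in more lean mice and 3 equal. The terms share genes with each other and with the 60 pathway genes. These genes were named after their values had been seen.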
